A study of Mus musculus with 6 samples.

Results

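Axonemal dyneins are the motor proteins that bend motile cilia and sperm flagella. They sit in outer and inner rows of arms along the microtubule doublets of the axoneme. The arms are built of heavy chains with motor activity and of smaller chains, among them intermediate and light chains. The arms are put together in the cytoplasm with the help of assembly factors, are carried into the cilium and are fixed there by docking proteins. In the lung these genes are known for their use in the multiciliated cells of the airway lining, and loss of many of them causes primary ciliary dyskinesia. The 38 genes described here were chosen by their symbols, as dynein heavy, light and light-intermediate chains, numbered dynein assembly factors and regulatory complex genes together with named docking, ruler and assembly genes, and for each gene the probe set was picked by its mean over all 6 arrays, the highest being used. They are 38 of 19938 genes with a probe set of 1 gene symbol. Ccdc103, also named in the rule, was not among them because its probe set carried a second symbol.

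The RNA came from type II alveolar cells, which make the surfactant of the lung, isolated from mice aged 8 weeks by collagenase digestion and differential plating. In the 3 pools labelled knockout, the mice carried 2 transgenes and a conditional allele, SP-C-rtTA, (tetO)7CMV-Cre and Gpr116flx/flx. The 3 control pools came from mice with SP-C-rtTA and (tetO)7CMV-Cre alone, so both groups carried both transgenes. The surfactant protein C promoter drives rtTA, a doxycycline-dependent activator, which in turn acts on the tetO promoter in front of Cre. Each array held the cells of 3 mice, and no doxycycline schedule is stated in the labels. A pool is therefore the unit of replication, and p-values measure the spread between pools.

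The probe set of the targeted gene, Gpr116 (now Adgrf5), read 11.89, 11.78 and 11.87 in knockout-labelled pools, against 11.49, 11.53 and 11.51 in control pools on the log2 scale. This probe set was called higher in knockout-labelled pools (0.34 ± 0.05 SE, limma adjusted p = 0.0119), and the groups did not overlap. The label is thus not borne out by a lower signal. It is unknown here whether the probes of this set fall inside the deleted exons. The probe set therefore does not check the genotype, and every direction below rests on the labels. The 10 markers of type II cells averaged 12.43 to 12.48 in knockout-labelled pools, against 12.34 to 12.36 in control pools. The 20 markers of multiciliated cells that are not among the 38 genes averaged 8.25 to 8.89 in knockout-labelled pools, against 9.51 to 9.55 in control pools, and the 10 markers of club cells, the secretory cells of the airway, averaged 9.91 to 10.24, against 10.47 to 10.64. The preparations therefore carried signal of ciliated cell genes in both groups. In RNA of a whole cell preparation, fewer cells of a type and less RNA per cell cannot be told apart.

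Most axonemal dynein genes were lower in the knockout-labelled pools. Of the 38 genes, 32 fell at a limma adjusted p under 0.05, 0 rose, and 6 did not pass. Over all 19938 genes 5.13% were lower and 3.36% higher by the same rule. The median log2 difference, knockout-labelled minus control, was -0.94 over the 38 genes and 0.0033 over all genes. The 3 knockout-labelled arrays lay below all 3 control arrays for 34 of the 38 genes and above them for 0, against 12.8% and 14.8% of all genes. At an unadjusted p under 0.05 the same fit gave 33 genes lower and 0 higher, against 10.6% and 11.5% of all genes. Because the genes were put together with results of these arrays known, the counts are descriptions of a chosen set.

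**Figure D1:**
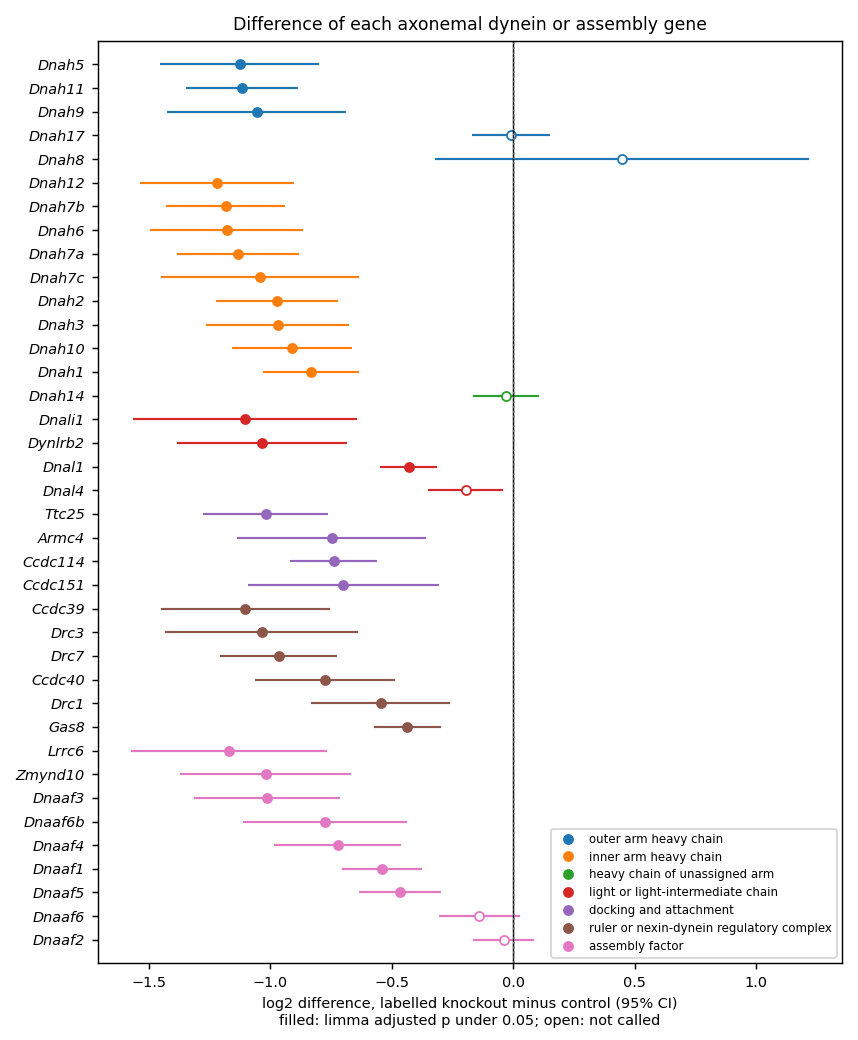
The log2 difference, knockout-labelled minus control, is plotted for each of the 38 genes with its 95% confidence interval from limma (3 pools per group), coloured by role. Filled points passed an adjusted p under 0.05, open points did not, and the dotted line is the median of all genes. The 32 called genes lie between -1.22 and -0.43. Of the 6 open points, that of Dnal4 (-0.20) has an interval below 0, from -0.35 to -0.04. The intervals of the other open points include 0, and that of Dnah8 is wide.

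The number of calls depended on which arrays were included. Without knockout 1, 2 or 3 the number lower was 32, 30 and 28, where 6.34%, 5.29% and 3.01% of all genes were lower. It was 21 without control 1, 19 without control 2 and 17 without control 3, and the 17 genes that kept their calls in all 6 of these fits were Dnah1, Dnah2, Dnah3, Dnah5, Dnah6, Dnah7a, Dnah7b, Dnah10, Dnah11, Dnah12, Dnal1, Ttc25, Ccdc114, Drc7, Gas8, Dnaaf1 and Dnaaf3. Over all genes 1.95%, 1.86% and 1.51% were lower without control 1, 2 and 3, so calls became fewer across the whole array as well. None of the 38 genes was called higher in any of these 6 fits. Knockout 2 and control 1 were pools with Y-linked signal and little Xist. In the remaining 2 pools per group 1 gene was called lower, Ccdc114 (limma adjusted p = 0.0462), while 33 had an unadjusted p under 0.05 and the median difference was -0.89. Over all genes that fit called 0.421% lower, and 21.3% had an unadjusted p under 0.05 in either direction.

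Among outer arm heavy chains the result divided between genes. Dnah5, a heavy chain often mutated in primary ciliary dyskinesia, read 8.82, 8.33 and 8.28 in knockout-labelled pools, against 9.65, 9.58 and 9.58 in control pools. The difference on the log2 scale was -1.13 ± 0.14 (SE, with 3 pools in each group), or 2.18-fold lower, with limma adjusted p = 0.00601. All 3 knockout-labelled values lay below the control values, with a gap of 0.76 between the groups. Dnah11, another outer arm heavy chain of airway cilia, read 7.90, 7.63 and 7.55, against 8.83, 8.73 and 8.87 in control pools (-1.12 ± 0.10, adjusted p = 0.00389). Dnah9, likewise of airway cilia, read 8.85, 8.38 and 8.19, against 9.56, 9.48 and 9.55 in control pools (-1.06 ± 0.16, adjusted p = 0.0101). For both genes the groups did not overlap. The Dnah9 call was lost without control 1 (adjusted p = 0.0519) and without control 3 (0.0594).

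Dnah8 and Dnah17, also of this class, are known as heavy chains of the sperm flagellum, and neither was called. Dnah17 read 6.33, 6.12 and 6.22 in knockout-labelled pools, against 6.26, 6.27 and 6.17 in control pools, a difference of -0.010 with a 95% interval from -0.17 to 0.15. Dnah8 read 7.95, 6.94 and 6.81 in knockout-labelled pools, against 6.70, 6.44 and 7.22 in control pools. Its groups overlapped, its highest value was that of knockout 1, and its difference of 0.45 had an interval from -0.32 to 1.22 (adjusted p = 0.501). It was the only one of the 38 genes with a positive difference.

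All 9 heavy chain genes assigned to the inner arms fell, against 5.13% of all genes, with a median of -1.04. Dnah12, a single-headed inner arm heavy chain, had the largest difference of the 38 genes. It read 9.50, 9.04 and 9.05 in knockout-labelled pools, against 10.49, 10.27 and 10.49 in control pools (-1.22 ± 0.13, 2.33-fold lower, limma adjusted p = 0.00493). Dnah6, of the same kind, read 9.40, 9.03 and 8.84, against 10.32, 10.22 and 10.27 in control pools (-1.18 ± 0.13, adjusted p = 0.00515). Neither gene had a knockout-labelled value within 0.7 of a control value, the gaps being 0.77 and 0.82.

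Dnah7a, Dnah7b and Dnah7c are closely related copies of one inner arm heavy chain gene, and signal may be shared between their probe sets. Dnah7b read 6.91, 6.70 and 6.49 in knockout-labelled pools, against 7.93, 7.84 and 7.88 in control pools (-1.18 ± 0.10, limma adjusted p = 0.00389). Dnah7a read 7.42, 7.09 and 7.01, against 8.36, 8.26 and 8.30 in control pools (-1.13 ± 0.11). The third copy, Dnah7c, read 7.24, 7.07 and 6.52, against 8.02, 7.92 and 8.02 in control pools (-1.04 ± 0.17, adjusted p = 0.0144), and lost its call without any 1 control array (adjusted p up to 0.0771). In each copy the groups stood apart, and 2 probe sets annotated to all 3 copies differed by -1.22 ± 0.14 and -1.10 ± 0.09.

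The other inner arm genes fell by less on average. Dnah2 and Dnah10 encode the heavy chains of the double-headed inner arm. Dnah2 read 7.65, 7.36 and 7.32 in knockout-labelled pools, against 8.43, 8.28 and 8.54 in control pools (-0.97 ± 0.11), and Dnah10 read 7.60, 7.35 and 7.30, against 8.33, 8.18 and 8.47 (-0.91 ± 0.10). On these probe sets the partner chains lay close together in size of change, but the 5 Dnah10 probe sets ran from -1.20 to -0.68. The closeness was not particular to this pair, since Dnah3, described below, stood at -0.97. Dnah1, an inner arm chain best known from sperm, read 7.04, 6.79 and 6.81, against 7.73, 7.62 and 7.79 in control pools (-0.83 ± 0.08, limma adjusted p = 0.00450). Dnah14, a heavy chain whose arm is not assigned here, read 4.03, 4.0 and 4.05 in knockout-labelled pools, against 4.14, 4.04 and 3.99 in control pools, low readings on which the groups overlapped.

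Dnah3, another single-headed inner arm chain, was covered by 33 probe sets, which allows the difference to be read many times along 1 gene. The probe set with the highest mean read 10.38, 10.07 and 9.86 in knockout-labelled pools, against 11.11, 11.02 and 11.09 in control pools (-0.97 ± 0.12, limma adjusted p = 0.00670). All 33 probe sets were lower and passed when every probe set of the array was tested. Their differences ran from -1.38 to -0.82 with a median of -1.15, so the probe set used gave a smaller fall than 30 of the others. These probe sets read the same RNA and are not replicates.

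The remaining genes with several probe sets gave like readings. All 5 probe sets of Dnah10 fell, with a median of -0.92, as did the 3 of Dnah6 (median -1.18) and the 2 of Dnah12 (-1.22 and -1.13). Both Dnah7b probe sets were called, at -1.18 and -0.65. Of 2 Armc4 probe sets, at -0.79 and -0.75, only the one with the larger difference passed over all probe sets, and neither of the 2 Dnah17 probe sets did (-0.010 and -0.043). No gene had probe sets of its own with opposite directions. A pair of probe sets annotated to both Dnaaf2 and Rpl36al, and so outside the 38, differed by 0.17 ± 0.06 and 0.16 ± 0.06 without a call, and that of Ccdc103 and Fam187a by -0.35 ± 0.08 (limma adjusted p = 0.0670 over all probe sets).

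**Figure D2:**
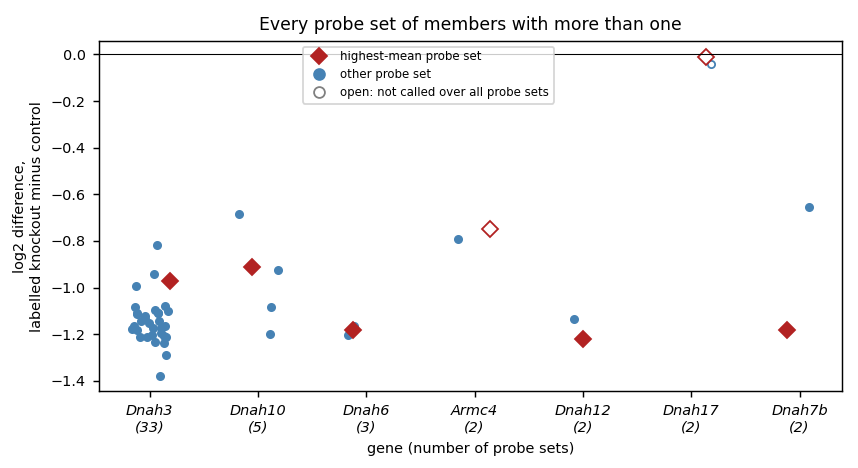
The log2 difference, knockout-labelled minus control, is shown for every probe set of the 7 genes that have more than 1, with the number of probe sets under each name. Diamonds mark the probe set with the highest mean, circles the others, and open symbols those not called when all probe sets were tested. The 33 Dnah3 points lie between -1.38 and -0.82, and both Dnah17 points lie near 0.

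Of the 4 light and light-intermediate chains 3 fell, against 5.13% of all genes, by differing amounts, and Dnal4 was not called. Dnali1, a light-intermediate chain of inner arms, read 9.57, 9.10 and 8.70 in knockout-labelled pools, against 10.25, 10.21 and 10.22 in control pools (-1.10 ± 0.20, limma adjusted p = 0.0183). Dynlrb2, a light chain of the roadblock type, read 9.18, 8.74 and 8.55, against 9.86, 9.88 and 9.83 in control pools (-1.03 ± 0.15, adjusted p = 0.00947). In both the 3 knockout-labelled arrays were spread over more than 0.6 while the control arrays stood within 0.05 of each other. Neither call was kept in every fit without 1 control array (adjusted p up to 0.0851 and 0.0538).

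Dnal1, a light chain that binds an outer arm heavy chain, varied less between pools. It read 8.91, 8.84 and 8.93 in knockout-labelled pools, against 9.33, 9.31 and 9.33 in control pools (-0.43 ± 0.05, 1.35-fold lower, adjusted p = 0.00532), the smallest difference among the called genes and yet one with a gap of 0.38 and little variation within either group. Dnal4, another dynein light chain, read 7.84, 7.87 and 7.68, against 7.95, 8.01 and 8.02 in control pools. Its groups did not overlap, but it was not called (-0.20 ± 0.07, adjusted p = 0.132, 95% interval -0.35 to -0.04).

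The 4 docking genes, whose products anchor outer arms to the doublets, were all called lower, against 5.13% of all genes. Ttc25 read 8.39, 8.24 and 7.95 in knockout-labelled pools, against 9.21, 9.18 and 9.25 in control pools (-1.02 ± 0.11, limma adjusted p = 0.00486). Ccdc114 read 7.56, 7.62 and 7.41, against 8.20, 8.24 and 8.37 in control pools (-0.74 ± 0.08, adjusted p = 0.00465). These 2 calls were kept whichever single array was left out.

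The other docking genes were nearer to the threshold. Armc4 read 7.09, 6.51 and 6.42 in knockout-labelled pools, against 7.43, 7.42 and 7.41 in control pools (-0.75 ± 0.16, limma adjusted p = 0.0381). Ccdc151 read 7.53, 6.99 and 6.84, against 7.79, 7.78 and 7.89 in control pools (-0.70 ± 0.17, adjusted p = 0.0485). In both, knockout 1 stood much closer to the controls than knockout 2 and 3 did. Of the 6 fits that left out 1 array, only that lacking knockout 1 kept either call. The largest adjusted p was 0.135 for Armc4 and 0.176 for Ccdc151. With the replicate number as a block Ccdc151 had an adjusted p of 0.0522.

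Ccdc39 and Ccdc40 encode the ruler that sets the spacing of inner arms and radial spokes. Ccdc39 read 8.95, 8.49 and 8.36 in knockout-labelled pools, against 9.74, 9.60 and 9.77 in control pools (-1.10 ± 0.15, limma adjusted p = 0.00746). Ccdc40 read 7.88, 7.76 and 7.41, against 8.56, 8.39 and 8.43 in control pools (-0.78 ± 0.12, adjusted p = 0.0122). The groups stood apart for both. Neither kept its call in every fit without 1 array, the Ccdc39 exception being control 3 (adjusted p = 0.0505) and the Ccdc40 exceptions all 3 controls (up to 0.0646).

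The nexin-dynein regulatory complex links neighbouring doublets and controls dynein activity. Its 4 genes here also fell, against 5.13% of all genes. Drc3 read 8.79, 8.36 and 8.05 in knockout-labelled pools, against 9.44, 9.40 and 9.47 in control pools (-1.04 ± 0.17). Drc7 read 7.83, 7.55 and 7.45, against 8.63, 8.50 and 8.60 in control pools (-0.97 ± 0.10, limma adjusted p = 0.00473). Drc1, needed for assembly of the complex, read 6.71, 6.75 and 6.37, against 7.33, 7.09 and 7.05 in control pools (-0.55 ± 0.12, adjusted p = 0.0384). Gas8, the gene of a further subunit, had the smallest difference of the 4, at 7.95, 7.86 and 7.84, against 8.39, 8.29 and 8.28 in control pools (-0.44 ± 0.06, adjusted p = 0.00729). Drc3 was not called without any 1 control array (adjusted p up to 0.0750), nor was Drc1 when knockout 3 (0.0740) or a control array was left out (0.124 at most).

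Of 9 assembly factor genes 7 fell, against 5.13% of all genes, with a median of -0.72 over the 9. Lrrc6 and Zmynd10 encode binding partners in cytoplasmic arm assembly. Lrrc6 read 8.79, 8.22 and 8.08 in knockout-labelled pools, against 9.51, 9.55 and 9.54 in control pools (-1.17 ± 0.17, limma adjusted p = 0.00971), and Zmynd10 read 8.06, 7.68 and 7.42, against 8.70, 8.71 and 8.81 (-1.02 ± 0.15, adjusted p = 0.00990). Both fell about as much as the heavy chains and lost their calls without control 2 or control 3 (adjusted p up to 0.0573 and 0.0603). Dnaaf3 read 7.60, 7.35 and 7.10, against 8.42, 8.24 and 8.43 in control pools (-1.01 ± 0.13, adjusted p = 0.00632).

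Smaller differences were seen for the next 4. Dnaaf6b, an X-linked gene with a symbol like that of Dnaaf6, read 6.96, 6.35 and 6.66 in knockout-labelled pools. Its control pools read 7.46, 7.36 and 7.48 (-0.78 ± 0.14). Dnaaf4, a co-chaperone, read 7.47, 7.09 and 7.09, against 8.03, 7.89 and 7.90 in control pools (-0.72 ± 0.11). Dnaaf1, a leucine-rich repeat protein needed for both rows of arms, read 7.65, 7.52 and 7.42, against 8.05, 8.04 and 8.12 in control pools (-0.54 ± 0.07, limma adjusted p = 0.00671). For none of these did the groups overlap. Dnaaf5, a HEAT repeat protein, read 8.76, 8.61 and 8.51, against 9.12, 9.06 and 9.10 in control pools (-0.47 ± 0.07, adjusted p = 0.0117). Leaving out any 1 control array ended the calls of Dnaaf6b, Dnaaf4 and Dnaaf5 but not of Dnaaf1, the largest adjusted p being 0.0972, 0.0586 and 0.0652. Leaving out knockout 3 also ended that of Dnaaf6b (0.0721).

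Dnaaf2 and Dnaaf6, both of which encode co-chaperones with a PIH domain, were not called. Dnaaf2 read 7.48, 7.42 and 7.43 in knockout-labelled pools, against 7.45, 7.45 and 7.55 in control pools, a difference of -0.040 with a 95% interval from -0.17 to 0.09. The whole interval lies above the estimates of the called genes. Dnaaf6 read 3.38, 3.54 and 3.51, against 3.58, 3.55 and 3.72 in control pools (-0.14 ± 0.07), and its groups stood apart by 0.01 without a call (adjusted p = 0.313). It and Dnah14 were the 2 of the 38 genes below a mean of 5.755, the 25th percentile of all genes.

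The knockout-labelled pools differed among themselves in these genes. Relative to each gene's control mean, the median of the 38 genes was -0.675 in knockout 1, -0.975 in knockout 2 and -1.07 in knockout 3, against 0.025, -0.045 and 0.025 in the control pools. Knockout 1 was the highest array of its group for 32 of the 38 genes and knockout 3 the lowest for 29, against 41.1% and 29.7% of all genes. The standard deviation was larger in knockout-labelled than in control pools for 34 of the 38, which holds for 68.2% of all genes. Over the 32 called genes the deviations ran from -0.97 to -0.29 in knockout 1, from -1.38 to -0.41 in knockout 2 and from -1.53 to -0.39 in knockout 3. The genes thus did not shift by 1 common amount on an array.

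**Figure D3:**
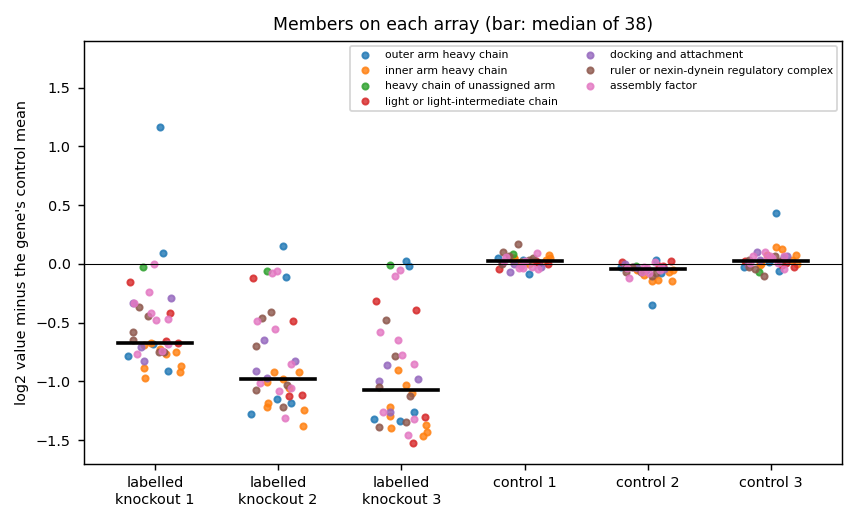
Each point is 1 of the 38 genes on 1 array, as its log2 value minus that gene's mean over the control pools, coloured by role, and bars mark the median of the 38. The medians lie at -0.675, -0.975 and -1.07 in the knockout-labelled pools and between -0.045 and 0.025 in the control pools. The point far above 0 in knockout 1 is Dnah8.

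Markers of multiciliated cells outside the 38 genes moved with them. Of 20 measured, 19 fell, 0 rose and 1 (Mlf1, -0.96 ± 0.24, limma adjusted p = 0.0561) was not called, with a median of -1.04. Foxj1, the transcription factor that drives the motile cilia programme, read 8.90, 8.64 and 8.47 in knockout-labelled pools, against 9.34, 9.43 and 9.59 in control pools (-0.78 ± 0.12, adjusted p = 0.0108). The largest differences were those of the radial spoke gene Rsph4a (-1.28 ± 0.21), the adenylate kinase Ak7 (-1.26 ± 0.17) and the central pair gene Hydin (-1.26 ± 0.14). Without control 1, 2 or 3 the markers called were 10, 8 and 6. Among club cell markers 7 of 10 fell and 0 rose, while among type II markers 0 of 10 fell and 2 rose. The type II markers read high, with means over all arrays from 11.05 (Etv5) to 13.16 (Sftpa1), against array maxima of 13.32 to 13.43. Whether this limited their differences was not tested. Over all genes 5.13% were lower and 3.36% higher. The 3 club cell markers without a call were Scgb1a1 (-0.13 ± 0.05), Scgb3a1 (0.08 ± 0.48) and Reg3g (1.09 ± 0.64). In knockout 1, 2 and 3 Scgb3a1 read 10.13, 10.15 and 12.02 and Reg3g 7.72, 7.35 and 9.91, each highest in knockout 3. Scgb1a1 hardly differed among these pools, at 12.91, 12.92 and 12.93. Knockout 1 was the highest of its group for all 20 ciliated markers and knockout 3 the lowest for 18.

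The mean of the 38 genes was 7.83, 7.54 and 7.41 in knockout-labelled pools, against 8.38, 8.30 and 8.39 in control pools, and that of the 20 ciliated markers was 8.89, 8.42 and 8.25, against 9.53, 9.51 and 9.55. Both means thus placed the 6 arrays with knockout 3 lowest and the controls close together. The mean difference was -0.76 for the 38 genes and -1.01 for the markers. The part of these markers in the result was not tested.

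Related genes outside the selection rule were read for comparison. Of 28 listed under other symbols 24 were measured, with a median of -0.71. Of these 17 fell and 0 rose, against 5.13% and 3.36% of all genes. They included the outer arm intermediate chains Dnaic1 (-1.13 ± 0.16) and Dnaic2 (-0.88 ± 0.15), the regulatory complex gene Fbxl13 (-1.21 ± 0.11) and the arm transport gene Daw1 (-1.05 ± 0.11), chosen for mention after their values were seen. Pih1d1, a co-chaperone gene used in many cell types, had a positive difference without a call (0.20 ± 0.07, limma adjusted p = 0.174).

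The cytoplasmic dyneins are built from related subunits and carry cargo along microtubules outside the axoneme, dynein 1 in most cells and dynein 2 within cilia as the return motor of intraflagellar transport. Of 9 measured dynein 1 subunits 0 were called by limma, and 1 (Dynll1, -0.20 ± 0.07, adjusted p = 0.146) had an unadjusted p under 0.05. Their median was 0.013, with the heavy chain Dync1h1 at 0.033 ± 0.046. By the same rule 5.13% of all genes were lower and 3.36% higher. The dynein 1 list held the roadblock light chain Dynlrb1 but not its relative Dynlrb2. The selection rule had placed Dynlrb2 with the axonemal genes, where it was called lower (-1.03 ± 0.15, limma adjusted p = 0.00947). The absence of calls among dynein 1 subunits thus depends in part on that assignment. Of 5 dynein 2 genes 4 fell. These were the heavy chain Dync2h1 (-0.68 ± 0.08, adjusted p = 0.00596), Wdr60 (-0.52 ± 0.08), Wdr34 (-0.44 ± 0.07) and Tctex1d2 (-0.43 ± 0.06), while Dync2li1 stood at -0.11 ± 0.05. Of 11 dynactin and adaptor genes only Actr1a was called, higher (0.24 ± 0.05, adjusted p = 0.0361). Without control 1, 2 or 3 the calls among these 25 genes were 2, 1 and 2.

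**Figure D4:**
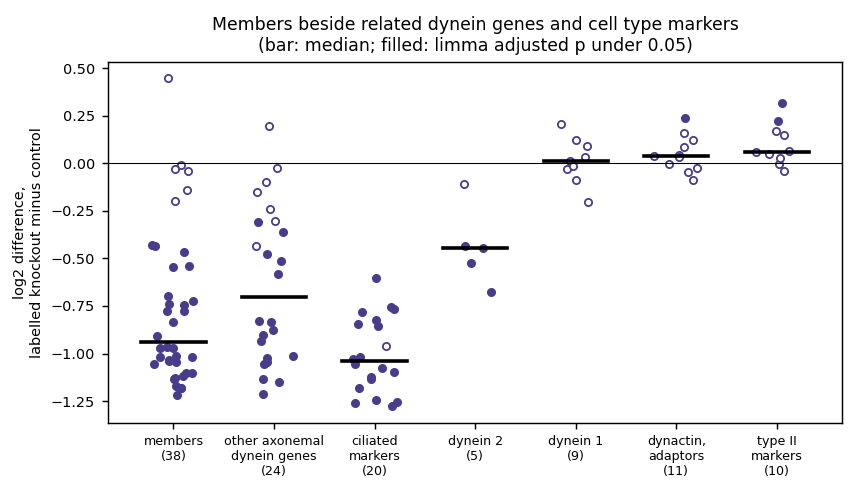
The log2 difference, knockout-labelled minus control, of each gene is shown for the 38 genes, for related gene lists and for markers of 2 cell types, with the number of genes under each name. Bars mark medians and filled points passed a limma adjusted p under 0.05. Dynlrb2 is counted with the 38 genes and not with dynein 1. Medians lie at -0.94 for the 38 genes, -1.04 for ciliated markers, -0.44 for dynein 2, 0.013 for dynein 1 and 0.06 for type II markers.

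Related genes with unlike readings were compared within each array. The ratio of Dynlrb2 to Dynlrb1, the roadblock light chain shared with dynein 1, stood at -0.59, -1.16 and -1.31 on the log2 scale in knockout-labelled pools relative to the control mean, against 0.04, 0.01 and -0.05 in control pools. Their changes differed by -1.02, those of Dnah5 and Dnah8 by -1.57 and those of Dnah9 and Dnah17 by -1.05. In all 3 pairs the 2 groups did not overlap. The exact permutation test over the 6 arrays (two-sided) gave p = 0.1 for each, and 0.1 after Benjamini-Hochberg adjustment over the 3 pairs, which is the smallest p that 3 pools against 3 allow. The pairs were picked after their values were seen to differ, so the lack of overlap and these p-values describe that choice and test no difference.

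**Figure D5:**
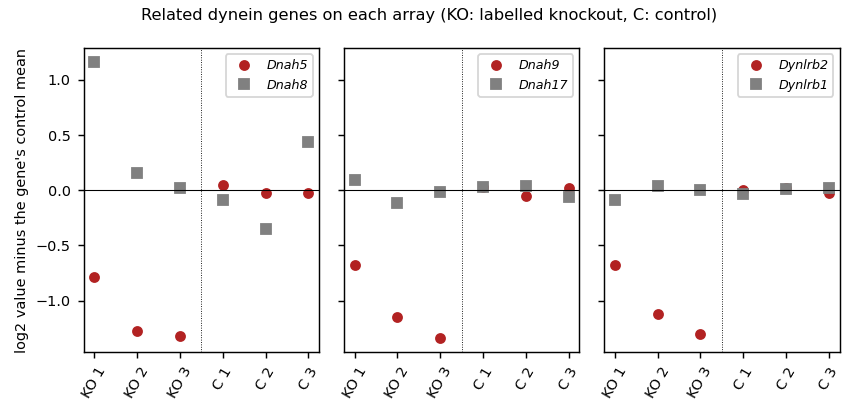
Each panel shows a pair of related dynein genes on the 3 knockout-labelled (KO) and the 3 control (C) arrays, as log2 values minus each gene's control mean. Dnah5, Dnah9 and Dynlrb2 lie at or below -0.68 on every knockout-labelled array, while Dnah17 and Dynlrb1 stay near 0 and Dnah8 is high in knockout 1.

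Since many of these genes moved together, their promoters were searched for letters bound by factors of the cilia programme. RFX factors bind an X-box, which is made of facing sites, and Foxj1 binds a forkhead site. Windows from 250 bases before to 50 after the start were found in RefSeq (GRCm38.p6) for 33 of the 38 genes, all but Armc4, Dnaaf1, Dnah3, Lrrc6 and Ttc25. The single site GTTGCC, on either strand, was in 11 of the 27 windows of called genes and in 2 of the 6 of uncalled genes, against 12.5% of all 32851 windows and 12.6% of those of coding genes. Facing sites written GTNNCCNNGGNNAC were in 4 and 1 of these windows, against 1.88% of all windows. The same sites spaced by 1 or 3 bases were in 0 of the 33. Every GTTGCC match that fits this longer form is counted under both. The forkhead letters GTAAACA were in 0 of the 27 and in 1 of the 6, that of Dnah17, against 3.65% of all windows. A match describes the letters only, and the motifs were settled after some spellings had been counted.

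Stretches holding these letters are shown for called genes of different roles to let the matches be compared. They lie upstream of the start and run in the direction of the gene, with the match in capitals. Uncalled genes, not printed, hold such matches too. Dnaaf6 has facing sites beginning 59 bases before the start, and Dnaaf2 has a single site beginning 9 bases before it. Ccdc151 and Dnaaf5 carry facing sites, beginning 34 and 18 bases before the start. In Dynlrb2 the capitals begin 51 bases before the start and in Dnah10 20 bases before it. The Drc1 match is on the opposite strand and begins 11 bases before the start. Dnah7a and Dnah7c share 33 of the 36 bases shown and are not independent.
Ccdc151 (chr9:22002640-22002683, minus strand): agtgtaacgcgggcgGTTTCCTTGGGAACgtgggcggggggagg
Dnaaf5 (chr5:139150202-139150234, plus strand): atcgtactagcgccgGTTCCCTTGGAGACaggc
Dynlrb2 (chr8:116504949-116504984, plus strand): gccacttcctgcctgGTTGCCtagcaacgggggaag
Dnah10 (chr5:124725050-124725084, plus strand): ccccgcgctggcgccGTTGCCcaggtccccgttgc
Drc1 (chr5:30281367-30281392, plus strand): tgactgctttcccttGGCAACggctt
Dnah7a (chr1:53706964-53706999, minus strand): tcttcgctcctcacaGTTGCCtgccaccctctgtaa
Dnah7c (chr1:46425284-46425319, plus strand): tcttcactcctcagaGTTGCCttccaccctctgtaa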

How the data were processed

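The deposited values are on the log2 scale. The submitters' processing notes name RMA and Affymetrix Expression Console 1.1 as what the authors used. Since RMA gives all arrays 1 distribution of probe signals, a shift common to most genes would not be seen. Array medians ran from 6.77 to 6.81, and precision is limited by there being 6 arrays. Gene symbols came from GEO's platform annotation, with 21789 of 35556 carrying 1 symbol, 1621 several and 12146 none. All 38 genes matched the RefSeq gene table by Entrez identifier.

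Groups came from the array titles. The titles also hold a first and a second number that are not explained. The first was 9, 9 and 11 in knockout 1 to 3, against 8, 8 and 10 in control 1 to 3. It differs between the groups and also sets replicate 3 apart in both. The second was 4, 7 and 11, against 1, 9 and 4. If the first number marks a batch, batch and group cannot be told apart. R 4.3.3 and limma 3.58.1 were used to fit all 19938 genes (lmFit, then eBayes with no trend; tests two-sided; no filter), with Benjamini-Hochberg adjustment over all of them and a threshold of 0.05. The fit was tested on simulated data. Both groups carry replicate numbers 1 to 3. Over the tested genes, same-numbered arrays had deviations from their group means that correlated at 0.192, 0.103 and 0.111, above the limit of 0.1. The rule set for taking them as pairs, all 3 above that limit, was thus met, and unlike pairs stood at 0.0428 or below. Over all probe sets the same-numbered pairs stood at 0.227, 0.0380 and 0.106. The second pair lay under the limit and below the unlike pair of knockout 2 and control 3 (0.141), so the pairing is not settled. The main fit was left unpaired, and the fit with the replicate number as a block was also run. Over the 38 genes alone the correlations of same-numbered arrays were -0.151, 0.336 and -0.201. The genes, lists and alternatives were chosen with earlier results of these data known. The naming rule took every one of the 38 genes, with values per array for up to 4 in a role and for those that lost a call; these are printed here for all 38. It also took Foxj1, the 3 ciliated markers with the largest differences and the called cytoplasmic dynein genes. Other genes outside the 38 were picked after their values were seen.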

Additional observations from a re-analysis of the deposited data

How the results depend on the processing

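No gene of the 38 changed direction with a call under any alternative. The replicate block left 31 called lower, against 32 without it, where 4.86% and 5.13% of all genes were lower. There were 29 with all probe sets tested, where 3.23% of all genes were lower. With an intensity trend, robust variances, array weights or median centring there were 31 or 32. Repeated quantile normalization, the filter on low values and the lowest-mean or averaged probe set also gave 31 or 32. The share of tested genes lower in these last fits ran from 4.58% with median centring to 7.09% with the filter. Leaving out each array in turn gave 17 to 32 genes lower, 6 to 20 ciliated markers lower and 1 to 5 cytoplasmic dynein genes called, with medians of the 38 genes from -1.04 to -0.84. In the same fits 1.51% to 6.34% of all genes were lower. The difference between the mean change of the 38 genes and that of the ciliated markers was 0.24, and 0.20 to 0.31 in these fits. Without knockout 2 and control 1 together, the calls were 1 gene of the 38, 0 ciliated markers and 0 cytoplasmic dynein genes by limma, where 33, 20 and 6 had an unadjusted p under 0.05, as did 21.3% of all genes. An ordinary linear model without variance moderation called 0, 0 and 0, with 33, 20 and 10 at an unadjusted p under 0.05 (20.0% of all genes) and adjusted p of 0.05005 to 0.198 for the 32 genes. These fits have fewer arrays or fewer degrees of freedom. The block changed the call of Ccdc151 and of no other of the 38 genes. The 6 uncalled genes were called under none of the alternatives.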
